A study of Macaca fascicularis with 6 samples.

Results

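Fatty acid desaturases and elongases were examined in liver of cynomolgus macaques (Macaca fascicularis) given vehicle or a liver X receptor (LXR) ligand. The 10 genes considered were the stearoyl-CoA desaturases SCD and SCD5, the fatty acid desaturases FADS1, FADS2 and FADS3, and the elongases ELOVL1, ELOVL2, ELOVL5, ELOVL6 and ELOVL7. Probe sets whose only annotated gene symbol was one of these names were taken, which gave 22 probe sets of 8 genes among 41097 probe sets with 1 symbol. FADS1 and ELOVL1 were not analysed here, because their 3 and 2 probe sets each carry a microRNA symbol as well. The vehicle group and the ligand group held 3 animals each, with 1 animal and 1 Affymetrix array per sample. The ligand samples are titled with the letters GW, and the sources used here name neither the compound, its dose, the length of treatment nor the age of the animals. All tissue was whole liver, so a change in the RNA of one cell type and a change in the number of its cells cannot be told apart.

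Desaturases place double bonds in fatty acids that are bound to coenzyme A, and elongases lengthen the chain in the endoplasmic reticulum by joining it to malonyl-CoA. SCD and ELOVL6 act on the saturated products of fatty acid synthase and yield oleate and palmitoleate. FADS1, FADS2, ELOVL2 and ELOVL5 turn essential dietary fatty acids into long polyunsaturated ones such as arachidonate and docosahexaenoate. In liver, LXR is known to switch on SREBF1, a transcription factor that drives SCD and other lipogenic genes, and SCD is also known as a direct LXR target. In the macaque gene annotation T2T-MFA8v1.1, used here for names and neighbours only, FADS3, FADS2 and FADS1 follow each other directly among protein-coding genes, and the spans of FADS2 and FADS1 overlap.

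The arrays had been designed against human transcripts, and their values are MAS5 signals, an intensity in arbitrary units whose trimmed mean was 500.1 on every array. Median signals were 111 to 139 per array. Ligand array 1 was an outlier in a principal component analysis, at -89.8 on the leading component (23.0% of the variance), where the other arrays lay at 0.632 to 36.8. The ratio of 3' to 5' signal of the ACTB control, which rises when RNA is degraded, was 16.04 on ligand array 3 and 4.45 to 8.34 on the others. The 10 hepatocyte markers were all measured, and their summed signal was 624033 to 746970 on vehicle arrays and 684353 to 738325 on ligand arrays. Values of single arrays are given in the order of arrays 1, 2 and 3 of a group. The vehicle arrays read 337, 408 and 541 for SREBF1, and the ligand arrays 3826, 1289 and 3450. ABCG1, a sterol transporter and LXR target, read 297, 356 and 362 against 940, 746 and 911. For both genes the groups did not overlap, although neither passed limma's test after adjustment over all probe sets, at adjusted p = 0.370 and 0.387.

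No desaturase or elongase passed limma's test at an adjusted p under 0.05, but most read higher with the ligand. A probe set was tested where its mean signal over the 6 arrays reached 129, which left 15 probe sets of 7 genes. Of these 15, 13 were higher with the ligand and 2 lower, against 50.3% higher among all 27304 tested. With each array centred on its median the split was 12 and 3, against 45.6%. Their median difference was 0.53 on the log2(signal + 16) scale, which is used for every log2 difference and fold here and understates changes of dim probe sets, and the median over all tested probe sets was 0.0032. At an unadjusted p under 0.05 there were 3 of the 15, all higher and 0 lower, where the share over all probe sets was 3.24% higher and 2.33% lower, or 5.58% in either direction. The 3 were one probe set each of SCD, ELOVL5 and ELOVL6. All ligand arrays lay above all vehicle arrays for 4 of the 15, against 5.99% over all probe sets, and all lay below for 0 of the 15, against 4.96%. With limma, 0 of all 27304 passed after adjustment, a background of 0%, and 1523 had an unadjusted p under 0.05. Several probe sets read the same gene and all read the same 6 animals, so these counts are not independent observations.

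Ligand array 1 weighed on the counts. Without it, 12 of the 15 were higher and the median log2 difference was 0.34. Only ELOVL5 208788_at then had an unadjusted p under 0.05, or 1 of the 15 beside 5.46% of all probe sets. The count of the 15 became 5 without vehicle array 2, beside 5.41% of all probe sets, with ELOVL2 and a further ELOVL5 probe set added. Without vehicle array 3 the number higher was 10, and the number with an unadjusted p under 0.05 was 2, beside 5.7%. Without the trend in the model of the spread there were also 2, beside 5.48%. With 3 arrays against 3, an exact two-sided permutation test of a single gene cannot go below p = 0.1, so only the model across all probe sets was used.

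**Figure D1:**
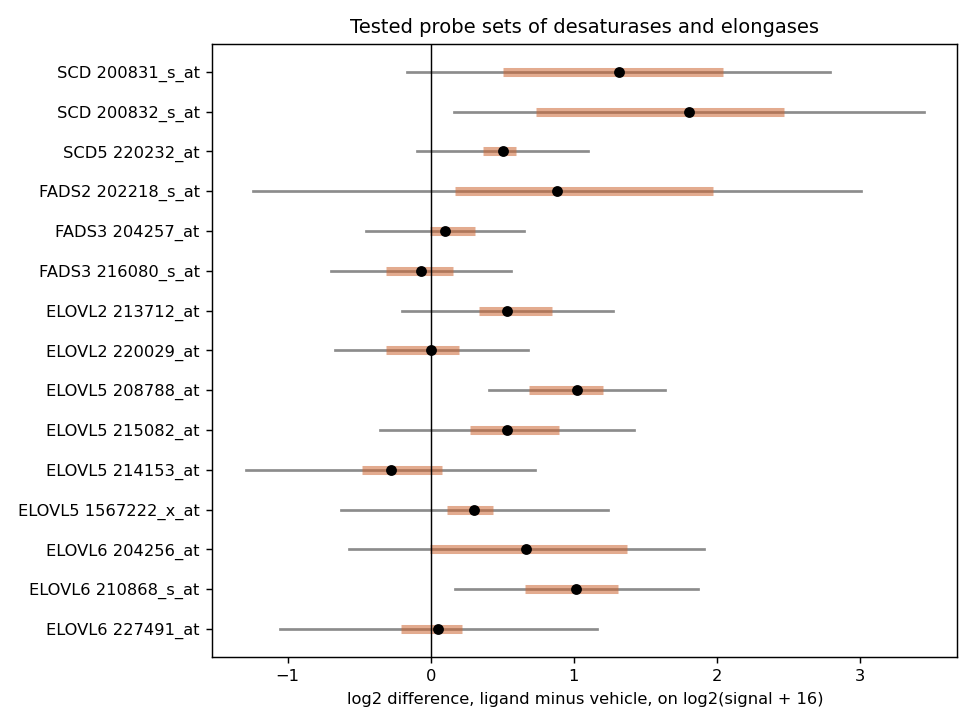
Log2 difference between ligand and vehicle, on log2(signal + 16), for the 15 tested probe sets. Points are limma estimates, thin grey lines their 95% confidence intervals and thick orange bars the range of estimates when each array is left out in turn; the interval lies above 0 for 1 SCD, 1 ELOVL5 and 1 ELOVL6 probe set.

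SCD, the desaturase that makes oleate from stearate, had the largest differences among the tested probe sets, and also some of the widest spreads. Its brightest probe set, 200831_s_at, read 104, 236 and 247 in the vehicle group and 1503, 427 and 165 in the ligand group. Ligand array 1 was far above the rest, and ligand array 3 lay below vehicle arrays 2 and 3, so the groups overlapped. The mean signal was 195 ± 79.8 with vehicle against 698 ± 709 after the ligand (SD, n = 3 in each group), a log2 difference of 1.31 ± 0.67 (SE) with a 95% confidence interval of -0.17 to 2.79. The limma adjusted p was 0.880, and the difference was 0.51 without ligand array 1, 2.04 without ligand array 3 and 0.94 without vehicle array 1.

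The second SCD probe set, 200832_s_at, ordered the arrays differently. It read 20.5, 386 and 263 in the vehicle group and 580, 444 and 620 in the ligand group. Here all ligand arrays were above all vehicle arrays, ligand array 3 was the highest rather than the lowest of its group, and vehicle array 1 stood far below every other array. The means were 223 ± 186 and 548 ± 92.0 (SD, n = 3 per group), so that the log2 difference was 1.80 ± 0.74 (SE), or 3.49-fold, with a 95% confidence interval of 1.12-fold to 10.9-fold. Limma gave an unadjusted p of 0.0343 and an adjusted p of 0.873. The size depended on vehicle array 1, without which the log2 difference was 0.74, and without vehicle array 2 it was 2.47. Leaving out ligand array 1, the outlying one on the first SCD probe set, left it at 1.76.

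Both SCD probe sets therefore read lowest on vehicle array 1 and disagreed on ligand array 3, at 165 on one and 620 on the other. That array also had the highest 3' to 5' control ratio, and the part of RNA quality in this disagreement was not tested. The suffixes _s_at and _x_at mark probe sets whose probes may also match other transcripts, which can include those of other genes. Another 2 SCD probe sets were too dim to be tested. The first, 211708_s_at, read 18.4 to 35.1 on vehicle arrays and 33.4 to 50.6 on ligand arrays, with overlap. The other, 211162_x_at, read 18.9 to 22.1 and 26.8 to 45.2, without overlap but close to the bottom of the scale. All 4 SCD probe sets thus had a higher mean with the ligand, and with the mean of their log2 values standing for the gene the difference was 1.002 ± 0.40 (SE), at a limma adjusted p of 0.824.

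SCD5, the second stearoyl-CoA desaturase of primates, differed less but far more evenly. Its one tested probe set read 342, 336 and 417 in the vehicle group and 467, 635 and 477 in the ligand group. Every ligand array was above every vehicle array, and vehicle array 3 came closest. Means were 365 ± 45.1 and 527 ± 94.1 (SD, n = 3 per group), so that the log2 difference was 0.50 ± 0.27 (SE), or 1.42-fold, at a limma adjusted p of 0.881. Its confidence interval of 0.935-fold to 2.14-fold includes no difference. Leaving out single arrays moved the log2 difference only between 0.36 and 0.60. The spread within groups was smaller than for most probe sets, at the 13.5th percentile of all tested, where the SCD probe sets stood at the 96.5th and 98.4th. The other 3 SCD5 probe sets were too dim to be tested, at 24.3 to 173, and 2 of them had a higher and 1 a lower mean with the ligand.

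FADS2, the delta-6 desaturase that takes the first step from linoleate towards arachidonate, varied more between animals than any other tested probe set of these genes. It read 55.6, 262 and 43.8 in the vehicle group and 507, 316 and 26.9 in the ligand group. Within each group, the highest and lowest arrays were thus far apart, with a ratio of 5.97 under vehicle and 18.9 under the ligand, and the lowest value of all was a ligand array. The means were 120 ± 123 and 283 ± 242 (SD, n = 3 per group). The log2 difference of 0.88 ± 0.96 (SE) was smaller than its error, at a limma adjusted p of 0.943, and its 95% confidence interval ran from 0.423-fold to 8.02-fold. It was 0.17 without ligand array 1, 1.98 without ligand array 3 and 1.58 without vehicle array 2, so its size depended on several single animals. The spread within groups was at the 99.7th percentile of all tested probe sets. A second FADS2 probe set was dim throughout, at 14.3 to 70.3, and was not tested.

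FADS3, a neighbour of FADS2 that acts on sphingoid bases, read nearly alike in both groups on both of its probe sets. The first, 204257_at, read 963, 1500 and 961 in the vehicle group and 1330, 1089 and 1184 in the ligand group. All ligand arrays fell between the lowest and highest vehicle arrays, and the log2 difference was 0.10 ± 0.25 (SE). The second, 216080_s_at, read 979, 741 and 505 against 664, 742 and 643, a log2 difference of -0.069 ± 0.28 (SE). The confidence intervals of 0.731-fold to 1.57-fold and 0.617-fold to 1.47-fold leave room for modest differences in either direction, but none for a doubling.

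**Figure D2:**
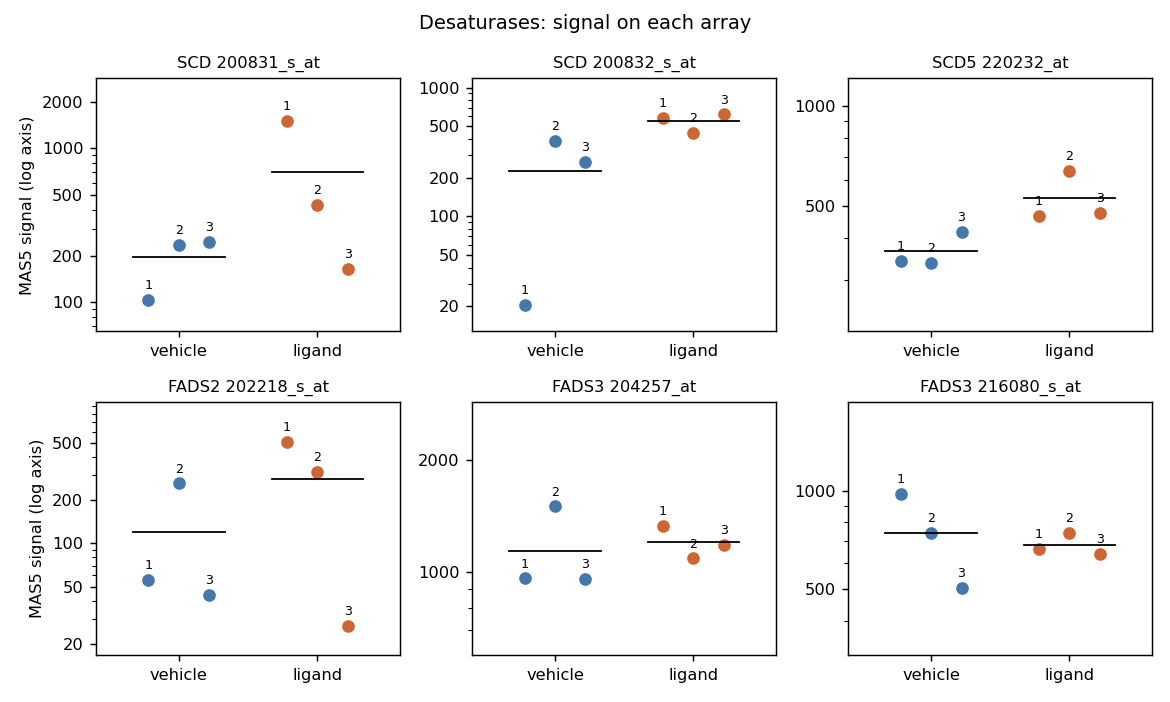
MAS5 signal, in arbitrary units on a log axis whose range differs between panels, of the 6 tested desaturase probe sets. Each point is 1 animal, numbered by array, and the black line is the group mean; the groups are apart for SCD 200832_s_at and SCD5, while FADS2 spans 26.9 to 507 within the ligand group.

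Among the elongases, ELOVL5 gave the smallest p of all these genes. ELOVL5 lengthens polyunsaturated fatty acids of intermediate length. Its brightest probe set, 208788_at, read 2861, 1430 and 2940 in the vehicle group and 4306, 4914 and 4841 in the ligand group. The ligand animals lay close together and above all vehicle animals, and vehicle array 2 was the lowest. The means were 2410 ± 850 and 4687 ± 332 (SD, n = 3 per group), so that the log2 difference was 1.02 ± 0.28 (SE), or 2.03-fold with a 95% confidence interval of 1.33-fold to 3.12-fold. Limma gave an unadjusted p of 0.00398, the rank of 140 among 27304, and an adjusted p of 0.773. The adjusted p ran from 0.576 without vehicle array 3 to 0.937 without ligand array 3. Without vehicle array 2 the log2 difference was 0.69, and without ligand array 1 it was 1.08.

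The 3 further ELOVL5 probe sets were dimmer and differed less. Probe set 215082_at read 132, 332 and 166 in the vehicle group and 321, 250 and 301 in the ligand group. Vehicle array 2, the lowest vehicle array on the bright probe set, was here the highest array of all, and the log2 difference was 0.53 ± 0.40 (SE). Probe set 1567222_x_at had a log2 difference of 0.31 ± 0.42 (SE), with its highest value of 254 on ligand array 1. Probe set 214153_at pointed the other way, at -0.28 ± 0.46 (SE), with its highest value of 335 on vehicle array 3. All 3 overlapped between groups, and the mean of the log2 values of the 4 probe sets gave a log2 difference of 0.40 ± 0.23 (SE) for the gene.

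ELOVL6, which extends palmitate to stearate and so supplies SCD, was represented by 3 tested probe sets with unlike profiles. The brightest, 204256_at, read 3689, 1345 and 534 in the vehicle group and 3045, 1588 and 2255 in the ligand group. The highest and the lowest value both came from vehicle animals, and the log2 difference was 0.67 ± 0.56 (SE). It was 1.37 without vehicle array 1 and -0.0076 without vehicle array 3. Probe set 210868_s_at instead read 240, 433 and 220 in the vehicle group and 982, 464 and 454 in the ligand group. All ligand arrays were above all vehicle arrays there, though ligand arrays 2 and 3 were only just above vehicle array 2. Its means were 298 ± 118 and 633 ± 302 (SD, n = 3 per group), so that the log2 difference was 1.02 ± 0.38 (SE), or 2.03-fold. The limma unadjusted p was 0.0235 and the adjusted p 0.858, and without ligand array 1 the log2 difference was 0.66. The third, 227491_at, read 111 to 161 with vehicle and 109 to 210 with the ligand, a log2 difference of 0.053 ± 0.50 (SE). Vehicle array 1 was thus the highest array on the brightest ELOVL6 probe set and the second lowest on the next.

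ELOVL2, which lengthens polyunsaturated chains on the way to docosahexaenoate, had 2 tested probe sets and overlapping groups on both. The first, 213712_at, read 632, 1130 and 655 in the vehicle group and 1493, 732 and 1328 in the ligand group. Ligand arrays 1 and 3 were above all vehicle arrays, and ligand array 2 was below vehicle array 2. The log2 difference was 0.54 ± 0.33 (SE), at a limma adjusted p of 0.895, and it was 0.34 when ligand array 1 was omitted and 0.85 when ligand array 2 was. The second, 220029_at, read 879, 978 and 476 against 739, 853 and 656, a log2 difference of 0.0030 ± 0.30 (SE). ELOVL7, an elongase of saturated chains, had 1 probe set, which was too dim to be tested, at 7.73 to 92.4 with vehicle and 18.8 to 49.4 with the ligand.

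**Figure D3:**
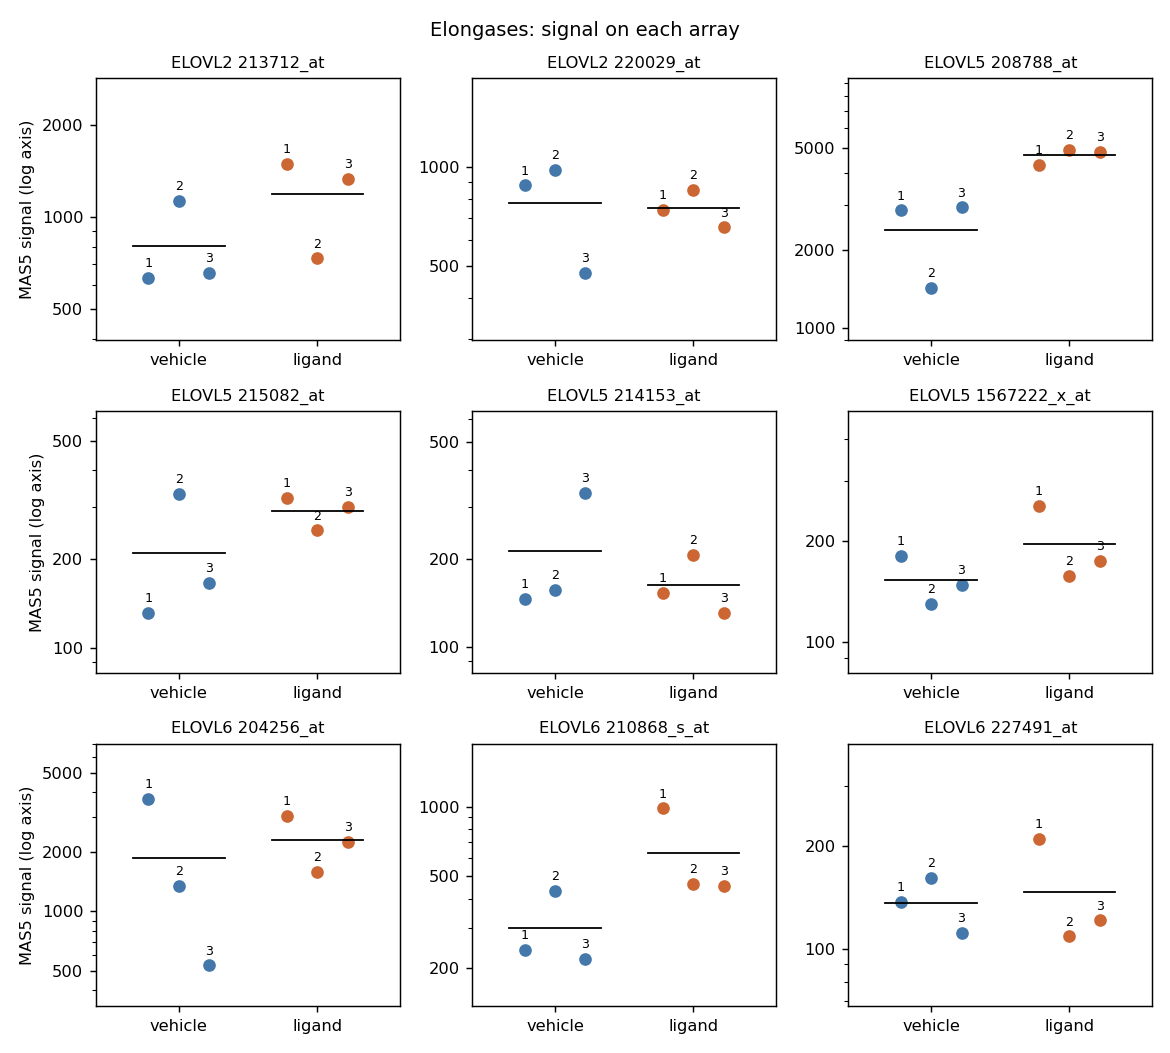
MAS5 signal, in arbitrary units on a log axis whose range differs between panels, of the 9 tested elongase probe sets. Each point is 1 animal, numbered by array, and the black line is the group mean; the groups are apart for ELOVL5 208788_at and ELOVL6 210868_s_at and overlap on the other 7.

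The dim probe sets were left out of the test by their mean over all 6 arrays, a limit that can favour genes high in one group. Without that limit, 18 of the 22 probe sets were higher and 4 lower with the ligand, and the median log2 difference was 0.34. An unadjusted p under 0.05 in limma was reached by 3 of the 22, against 5.29% of all probe sets without the limit. These were the same 3 probe sets as with the limit. FADS2, with mean signals of 120 under vehicle and 283 under the ligand, reached the limit through the ligand group only, and without it 12 of 14 probe sets were higher and 2 lower. When the brightest probe set stood for each gene, all 7 genes tested were higher, FADS2 among them, or 6 of 6 without FADS2, beside 50.3% of all 13349 genes. Without the limit all 8 genes were higher on the log2 scale, ELOVL7 at 0.17 ± 0.62 (SE), although its mean signal was 39.3 with vehicle and 35.3 with the ligand. The 7 had a median log2 difference of 0.67, and 1 of them, ELOVL5, had an unadjusted p under 0.05, against 6.12% of all genes. Without vehicle array 3 the values of FADS3 and ELOVL6 were -0.0057 and -0.0076. Among these brightest probe sets the groups stood apart, ligand above vehicle, for 2 of the 7, SCD5 and ELOVL5, against 6.21% of all genes, and ligand below vehicle for 0, against 5.21%.

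Arrays of the same group also differed in how far they lay from the mean of all 6 arrays. A difference between the groups alone would place ligand arrays above that mean and vehicle arrays below it. Ligand array 1 gave the highest signal for 6 of the 15 tested probe sets and the lowest for 0, and it lay above the mean of the 6 arrays for 12. Its median deviation from that mean was 0.53 on the log2 scale, where the median over all tested probe sets on that array was 0.025. Vehicle array 3 lay below the mean for 14 of the 15, with a median deviation of -0.27, although the median over all tested probe sets was 0.061 there. Vehicle array 1 lay below the mean for 11 of the 15, while vehicle array 2 was unlike the other vehicle arrays and lay above it for 9. Ligand arrays 2 and 3 lay above the mean for 10 and 9. Ligand array 3 was split, with deviations of 1.09 for SCD 200832_s_at and -1.75 for FADS2.

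**Figure D4:**
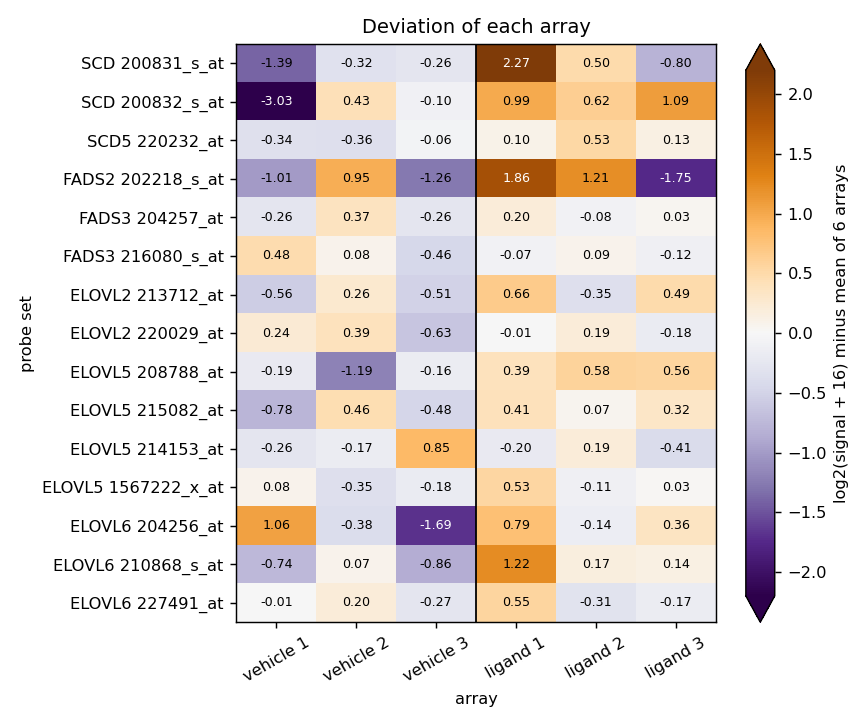
Deviation of each array from the mean of the 6 arrays, on log2(signal + 16), for the 15 tested probe sets, with vehicle arrays left and ligand arrays right of the black line. Ligand array 1 is highest for SCD 200831_s_at, at 2.27, and vehicle array 1 is lowest for SCD 200832_s_at, beyond the colour scale at -3.03.

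Most markers of macrophages, endothelium and stellate cells also read higher with the ligand, but not all. All 8 measured macrophage and Kupffer cell markers were higher with the ligand, and their summed signal was 11001 to 14410 on vehicle arrays and 18330 to 23822 on ligand arrays. Of 11 endothelial markers 10 were higher, with overlapping sums of 14161 to 25756 and 20832 to 28081. The lower one was VWF, the clotting factor of endothelial cells and platelets, which read 4667, 2129 and 1340 in the vehicle group against 157, 156 and 377, without overlap, at a limma adjusted p of 0.319. Of 9 markers of stellate cells and fibroblasts 6 were higher, with sums of 17259 to 26851 and 32655 to 45720. DCN and COL3A1, both higher, were the brightest of this list and weigh most in the sums. The 3 lower ones were PDGFRB, DES and COL1A1, which read 1991 to 2129 against 1549 to 1909, without overlap. The 10 hepatocyte markers had a median log2 difference of 0.018, with 6 higher and 4 lower. Adipocytes also make much SCD, and 3 of their 6 markers were measured, 2 higher and 1 lower, with sums of 1015 to 1206 and 1277 to 1296. All 3 overlapped between groups, and the lower one was CIDEC, at a log2 difference of -0.081. CIDEA, with means of 124 and 170, reached the limit on mean signal of 129 through the ligand group only. ADIPOQ, PLIN1 and LEP were too dim to be tested. Red cell markers, 2 of 5 measured, summed to 984 to 11218 with vehicle and 747 to 1015 with the ligand. HBB, the beta chain of haemoglobin, read 11085 on vehicle array 1, the array lowest on both tested SCD probe sets. AHSP, the other marker, read 134 on that array, its lowest value, and was highest on vehicle array 2, at 426. Cholangiocyte, T and NK cell, B and plasma cell and neutrophil markers had overlapping sums, with 2 of 4, 1 of 3, 2 of 4 and 2 of 5 measured markers higher. The part of these cell types in the values of the desaturases and elongases was not tested.

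The other enzymes of the same pathways, and their regulators, went in both directions. Over 8 lists, 53 of 64 genes were measured, 23 were higher and 30 lower with the ligand, and the median log2 difference was -0.031. None passed limma's adjusted test, and 5 had an unadjusted p under 0.05, 3 higher and 2 lower, against 6.12% of all genes. Those 5 were SREBF1, FASN and ME1, which were higher, and CYB5R2 and PPARA, which were lower. CYB5R2 reached the limit on mean signal through the vehicle group only, and ACACA, an acetyl-CoA carboxylase, was also over it in 1 group alone. Without these, 4 of 51 genes had an unadjusted p under 0.05. The number was 3 without vehicle array 3, ligand array 2 or ligand array 3.

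The partners of the elongases, which reduce and dehydrate the lengthened chain, were nearly level. Of 5 measured genes 4 were higher and 1 lower, 0 had an unadjusted p under 0.05, and the median log2 difference was 0.075, between -0.068 without vehicle array 3 and 0.19 without vehicle array 1. HACD2 and HACD3, dehydratases of the cycle, had log2 differences of 0.075 ± 0.22 and 0.099 ± 0.20 (SE), and HACD4, of the same family, 0.40 ± 0.42 (SE), or 0.053 without vehicle array 2. ELOVL3 and ELOVL4, the elongases outside the 10 genes, were too dim to be tested. Desaturation draws electrons from cytochrome b5 and its reductases. In that list 3 of 6 genes were higher and 3 lower, with a median log2 difference of -0.085, which was -0.29 without vehicle array 3, 0.014 without vehicle array 1 and 0.19 for the genes above the 75th percentile of signal. The higher ones were CYB5A, CYB5R1 and CYB5R3, at 0.19 ± 0.23, 0.37 ± 0.65 and 0.37 ± 0.37 (SE). CYB5A and CYB5R3 were the brightest of the list, with mean signals of 19041 and 3406 under vehicle. CYB5R2, a cytochrome b5 reductase, read 226, 189 and 216 in the vehicle group and 112, 93.7 and 55.3 in the ligand group. All ligand arrays were below all vehicle arrays, with a log2 difference of -1.17 ± 0.50 (SE) and a limma adjusted p of 0.875. CYB5B, the cytochrome b5 of the outer mitochondrial membrane, also read lower on every ligand array, at 279 to 434 against 448 to 734, a log2 difference of -0.49 ± 0.31 (SE). CYB5R4, another reductase, had a log2 difference of -0.37 ± 0.33 (SE). These were -0.27 and -0.29 for CYB5B without vehicle array 2 and ligand array 1, and -0.55 and -0.20 for CYB5R4 without ligand arrays 2 and 1.

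Enzymes that supply palmitate to the elongases were mostly higher. Of 8 measured genes 6 were higher and 2 lower, beside 50.3% higher among all genes. An unadjusted p under 0.05 in limma was reached by 2 of the 8, both higher, against 6.12% of all genes. The median log2 difference of the list was 0.25, or 0.038 without ligand array 1 and 0.42 without ligand array 2. FASN, the fatty acid synthase, read 799, 934 and 1234 in the vehicle group and 2062, 1316 and 1440 in the ligand group. ME1, the malic enzyme that makes NADPH, read 288, 265 and 56.3 against 352, 507 and 486. Neither gene overlapped between groups, with log2 differences of 0.69 ± 0.26 and 1.32 ± 0.52 (SE) and limma adjusted p of 0.870 and 0.873. Without vehicle array 3 that of ME1 was 0.65. THRSP, a lipogenic protein of liver, had a log2 difference of 0.55 ± 0.38 (SE), which was 0.14 once ligand array 1 was left out.

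Enzymes that activate fatty acids or use the products were more often lower than higher, where 50.3% of all genes were higher. In the list of acyl-CoA synthetases and binding proteins, 2 of 8 genes were higher and 6 lower, 0 with an unadjusted p under 0.05, with a median log2 difference of -0.11, or -0.27 without ligand array 1 and -0.049 without vehicle array 2. SLC27A5, the bile acid and very long chain acyl-CoA synthetase of liver, had a log2 difference of -0.30 ± 0.22 (SE), SLC27A4, a fatty acid transporter, -0.38 ± 0.43 (SE), and ACSL6, a long-chain synthetase, -0.33 ± 0.35 (SE). All 3 depended on single arrays. SLC27A5 was -0.080 without vehicle array 2 and -0.49 without vehicle array 3, SLC27A4 -0.024 without ligand array 2 and -0.77 without ligand array 1, and ACSL6 -0.062 without vehicle array 2 and -0.57 without ligand array 1. In the list of acyltransferases that use the products, 1 of 8 was higher and 7 lower, 0 with an unadjusted p under 0.05, with a median of -0.18, which was -0.018 without vehicle array 1 and -0.043 without ligand array 2. SOAT1, which esterifies cholesterol, had a log2 difference of -0.40 ± 0.37 (SE), and 0.021 once ligand array 1 was left out. DGAT1, which makes triglyceride, had -0.20 ± 0.24 (SE), or -0.053 without vehicle array 1 and -0.37 without vehicle array 2, and GPAM, which starts glycerolipid synthesis, 0.34 ± 0.44 (SE), which was -0.17 without ligand array 1.

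Docosahexaenoate is finished by shortening in peroxisomes, and 3 of 7 genes of that step were measured, 1 higher and 2 lower, with a median log2 difference of -0.13, or 0.057 without vehicle array 2 and -0.27 without vehicle array 3. ACAA1, a peroxisomal thiolase, had a log2 difference of -0.41 ± 0.31 (SE), ABCD3, a transporter of the peroxisomal membrane, 0.26 ± 0.35 (SE), and HSD17B4, the bifunctional enzyme, -0.13 ± 0.23 (SE). ACAA1 was -0.19 without vehicle array 1 and -0.75 without ligand array 1, and ABCD3 was 0.029 without vehicle array 3 and 0.70 without vehicle array 1. Among other membrane desaturases and related oxidases, 1 of 5 was higher and 4 lower, with a median of -0.021, or -0.26 without vehicle array 1. DEGS1, which desaturates ceramide precursors, read 655 to 713 with vehicle and 519 to 612 with the ligand, without overlap, a log2 difference of -0.24 ± 0.23 (SE). FAXDC2 had a log2 difference of -0.16 ± 0.30 (SE) and MSMO1, a sterol oxidase, 0.025 ± 0.20 (SE).

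Of 10 measured regulators of these genes, 5 were higher and 5 lower, with a median log2 difference of -0.0065, between -0.052 without vehicle array 3 and 0.10 without vehicle array 2. SREBF1 had the largest difference of the list, at 2.57 ± 0.39 (SE), or 5.93-fold. Without ligand array 2 it was 3.06 and the limma adjusted p was 0.0453. PPARA, the fatty acid receptor that drives oxidation genes and is also known to act on desaturase genes, read 4849, 3371 and 4620 in the vehicle group and 3115, 2548 and 3234 in the ligand group. All ligand arrays were below all vehicle arrays, with a log2 difference of -0.52 ± 0.21 (SE) and a limma adjusted p of 0.874. INSIG2, which retains SREBP precursors before their cleavage, had a log2 difference of 0.21 ± 0.21 (SE). Its value dropped to 0.039 and 0.077 when vehicle array 1 or ligand array 2 was left out, and was 0.32 when ligand array 1 was.

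**Figure D5:**
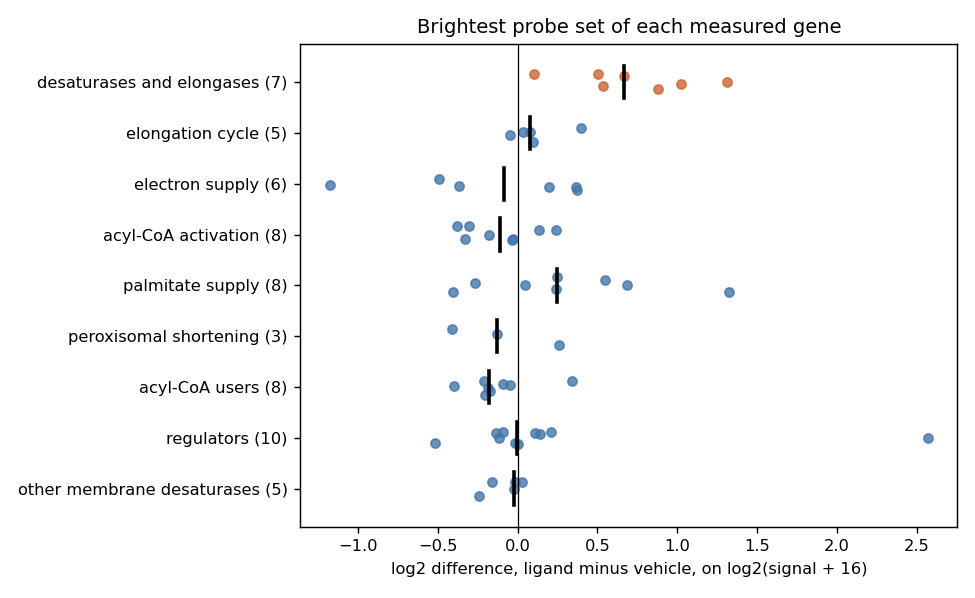
Log2 difference between ligand and vehicle, on log2(signal + 16), for the brightest tested probe set of each gene; each point is 1 gene, the black line the median of its list, and the number of genes measured stands in brackets. The 7 desaturases and elongases all lie above 0 with a median of 0.67, and the lists of related genes have medians from -0.18 to 0.25.

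The genes with the array profiles most like SCD and ELOVL5 were also identified, by Pearson's r over the 6 arrays on log2(signal + 16). For the brightest SCD probe set these were BTNL3, RPS16, CRTAP, RLN2 and DNAJB5, with r of 0.989 to 0.995 and Spearman's rho of 0.943 to 1. For the brightest ELOVL5 probe set they were RRAS, TRIM32, AXL, MBNL1 and UBXN2B, with r of 0.991 to 0.997 and rho of 0.829 to 1. An r of 0.9 or more was reached by 81 and 189 of 13348 genes. These genes were picked for their r, the arrays and the group difference are shared, and no test applies.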

How the data were processed

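Total RNA of macaque liver was biotin-labelled for Affymetrix arrays, per the labels' protocols. The values deposited by the authors are intensity values, MAS5 signals on a linear scale per the submitters' processing notes, with version, scaling target and filters not given in the sources used here. Detection calls and scan dates were not used here, and absence of a transcript cannot be separated from a low signal. Genes were named from the platform annotation of 2016, in which 41097 of 54675 probe sets have 1 symbol, 1801 several and 11777 none. A reference for probe or gene sequences was not used here.

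Signals were taken as log2(signal + 16). After removal of 62 control probe sets, the 27304 with a mean signal at or above the median of 129 were tested with lmFit and an intensity-trended eBayes (limma 3.58.1, R 4.3.3), two-sided, on 6 arrays without covariates. The Benjamini-Hochberg adjustment ran over all of them at a threshold of 0.05. The median SE was 0.35. Figures used Python 3.11.15 and matplotlib 3.10.9.

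The 10 genes and all gene lists were chosen with earlier results of these data known. The genes named are the 10, SREBF1, ABCG1, the 3 with the smallest p in each pathway list, the 5 most like SCD and ELOVL5, and list members named beside a count. Likeness to FADS1 was also planned, and FADS1 was not analysed here. The labels do not call replicates littermates or batches, and the same replicate number in both groups is not taken as a pairing. Alternatives were other pseudocounts, scalings, filters, eBayes settings, array weights, a replicate block, leaving out each array, and averaging the probe sets of each gene.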

Additional observations from a re-analysis of the deposited data

How the results depend on the processing

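The 3 arrays per group limit every value. No probe set of all tested passed limma's adjusted test under any alternative, also at a threshold of 0.10, except 1 without vehicle array 2 and 1 without ligand array 2; leaving out each array gave 0 to 1. Leaving out each array also gave 1 to 5 of the 15 desaturase and elongase probe sets with an unadjusted p under 0.05, against 4.98% to 5.7% of all probe sets. It gave 10 to 13 of the 15 higher with the ligand, where 50.3% of all probe sets were higher with all 6 arrays. Of the 53 pathway genes, 3 to 6 had an unadjusted p under 0.05 in limma, where 6.12% of all genes had one with all 6 arrays. When the filter was raised to the 75th percentile, so that fewer probe sets were tested, 8 of 9 were higher. At the main filter 50.3% of all probe sets were higher. Of these 9, 2 had an unadjusted p under 0.05, against 6.39% of all probe sets at that filter. There 3 pathway genes, SREBF1, FASN and PPARA, had an unadjusted p under 0.05 in limma, out of fewer genes than the 53 of the main filter. ME1 and CYB5R2 lay under the raised filter and were not tested. Averaging each gene's probe sets also gave 3 pathway genes, for a cause that was not tested.

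Log2 differences near 0 changed sign. ELOVL2 220029_at was -0.00085 with a pseudocount of 64 and -0.040 with median centring, where MSMO1 was -0.018. Leaving out arrays gave FADS3 204257_at -0.0057 to 0.31, with -0.0049 without vehicle array 1; FADS3 216080_s_at -0.31 to 0.15; ELOVL2 220029_at -0.31 to 0.20, with -0.093 without ligand array 2; ELOVL5 214153_at -0.48 to 0.076; ELOVL6 204256_at -0.0076 to 1.37; ELOVL6 227491_at -0.21 to 0.22, with -0.070 without vehicle array 3. It gave HACD2 -0.12 to 0.22, with -0.013 without ligand array 3; HACD3 -0.068 to 0.19, with -0.0016 without ligand array 1; HSD17B4 -0.27 to 0.10, with 0.043 without ligand array 3; SOAT1 -0.73 to 0.021; GPAM -0.17 to 0.66; FAXDC2 -0.53 to 0.062; MSMO1 -0.065 to 0.12, with -0.019 without ligand array 1. Against the brightest probe sets of their genes, FADS3 216080_s_at at -0.069 and ELOVL5 214153_at at -0.28 had the opposite sign.

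Deviations of same-numbered arrays from their group means correlated at 0.040, -0.031 and 0.070 across probe sets. Those of arrays with different numbers correlated at -0.076 to 0.034. With 3 arrays per group these values cannot show whether the numbers mark a pairing. With a replicate block, 0 probe sets passed, and 3 of the 15 had an unadjusted p under 0.05, against 6.25% of all probe sets. Of the 15, 13 were higher, and 4 of the 53 pathway genes had an unadjusted p under 0.05 in limma. Without the block the share over all genes was 6.12%.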
